A study of Homo sapiens with 4 samples.

Results

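The 9 genes described here belong to the complement system: C1R, C1S, C3, CFB, CFD, CFI, SERPING1, CD55 and CD59. They were found as every probe whose platform annotation gives 1 of these symbols, which gave 16 probes of the 47322 on the array, and 9 genes of 20043 with a named probe. RNA was measured on 4 single-colour Illumina bead arrays, 1 per group, in a study of what breast cancer exosomes do to non-tumorigenic breast cells. The groups were MCF10A cells given exosomes of MDA-MB-231 that hold a Dicer antibody (the Dicer antibody array), MCF10A cells given exosomes of MDA-MB-231 alone (the exosome array), MDA-MB-231 cells with no treatment (the MDA-MB-231 array), and MCF10A cells with no treatment (the untreated array). MCF10A is a breast epithelial line that does not form tumours, and MDA-MB-231 was derived from a breast cancer. All cells were kept in medium whose serum had been freed of exosomes. The sources used here give neither the amount of exosomes nor the time of exposure. No group had a second array, so every difference is between 2 single arrays, with no test and no error.

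Complement is a cascade of serum proteins that mark and puncture microbes and damaged cells. In the classical pathway the proteases C1R and C1S, bound to C1q, start the cascade. In the alternative pathway the protease CFD cleaves CFB, which then cleaves C3, and C3 fragments coat the target and draw in further components. Host cells hold the cascade back with the secreted inhibitors SERPING1 and CFI and with the surface proteins CD55 and CD59. Most of these proteins come from the liver, but fibroblasts, epithelial cells and macrophages also make several of them, and C3 and CFB are known to be induced by inflammatory cytokines.

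Promoter sequence is shown for the genes that differed most between the Dicer antibody and untreated arrays and have an entry in the RefSeq promoter table (GRCh38.p14), so that the letters can be read beside the signals given below. Of the 9 genes, 6 had an entry, with 10 start sites in all. Each window holds the 250 bases before a start site. Capitals mark matches, on either strand, to the TATA box (letters TATAAA), the element of STAT factors known as GAS (letters TTCNNNGAA), the interferon element ISRE (a pair of GAAA repeats with any 2 bases between them), the AP-1 site (letters TGANTCA), the GC box (letters GGGCGG) and the NF-kB site. The probes do not tell which start site was in use. CFB is shown at chr6:31945845-31946094 on the plus strand, CFI at chr4:109802000-109802249 on the minus strand, CD55 at chr1:207321428-207321677 on the plus strand, and CD59 at its most upstream start, chr11:33736480-33736729 on the minus strand.
CFB: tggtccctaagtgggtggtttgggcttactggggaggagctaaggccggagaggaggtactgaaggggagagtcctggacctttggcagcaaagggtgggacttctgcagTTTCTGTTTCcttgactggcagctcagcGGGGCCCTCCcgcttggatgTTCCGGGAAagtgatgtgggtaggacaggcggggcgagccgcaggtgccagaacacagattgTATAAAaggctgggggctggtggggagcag
CFI: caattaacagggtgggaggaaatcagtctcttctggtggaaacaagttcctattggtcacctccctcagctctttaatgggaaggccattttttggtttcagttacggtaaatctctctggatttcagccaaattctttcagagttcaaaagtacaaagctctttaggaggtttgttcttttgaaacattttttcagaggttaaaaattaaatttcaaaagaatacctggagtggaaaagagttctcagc
CD55: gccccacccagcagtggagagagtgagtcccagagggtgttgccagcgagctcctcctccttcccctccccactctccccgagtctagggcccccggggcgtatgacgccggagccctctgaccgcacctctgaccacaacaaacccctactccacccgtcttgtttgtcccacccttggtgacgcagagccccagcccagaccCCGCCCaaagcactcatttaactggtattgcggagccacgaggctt
CD59: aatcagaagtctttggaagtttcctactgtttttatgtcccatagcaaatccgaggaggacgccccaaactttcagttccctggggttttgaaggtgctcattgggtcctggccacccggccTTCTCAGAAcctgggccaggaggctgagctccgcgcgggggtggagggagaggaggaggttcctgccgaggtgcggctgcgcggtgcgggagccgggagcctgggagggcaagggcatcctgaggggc

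The CFB window held 4 matches. The TATA box lay 30 to 25 bases before the start, the GAS letters ttccgggaa 92 to 84 bases before it, an NF-kB match, ggggccctcc, 112 to 103 bases before it and an ISRE match, on the minus strand, 140 to 131 bases before it. Over 35116 windows of 250 bases, 10.7% held TATAAA, 6.57% TTCNNNGAA, 9.96% the NF-kB motif, 3.02% the ISRE motif, 6.57% TGANTCA and 42.6% GGGCGG. The CFI window held none of the 6 motifs, and the CD55 window held a GC box alone. The CD59 window held the GAS letters ttctcagaa 128 to 120 bases before the start. The 4 CD59 start sites differed, since GGGCGG stood before the second of them and TGANTCA before the most downstream one. A match describes these letters and shows no binding.

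The arrays differed greatly in how much they detected, where detected means a deposited detection p below 0.01. The Dicer antibody and untreated arrays found RNA of 11084 and 11110 of the 20043 genes (55.3% and 55.4%), against 1569 on the exosome array and 1586 on the MDA-MB-231 array (7.83% and 7.91%). Complement followed this split. The counts above read 1 probe per gene. Read that way, 8 of the 9 complement genes were detected on the Dicer antibody array and 7 on the untreated array. The exosome and MDA-MB-231 arrays each detected 1. By any probe the untreated array detected 8, and the other counts were the same. Markers went against the MCF10A label of the Dicer antibody and untreated arrays. The basal keratins KRT5 and KRT14 and the epithelial cadherin CDH1 were not detected on any array. Of 9 measured epithelial markers, 3 were detected on the Dicer antibody array and 2 on the untreated array. Of 11 fibroblast markers, 6 were detected on the Dicer antibody array and 11 on the untreated array, and none on the other arrays. Group names below are therefore those of the labels, and comparisons across the split in detection come last. In those, group and detection cannot be told apart.

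**Figure D1:**
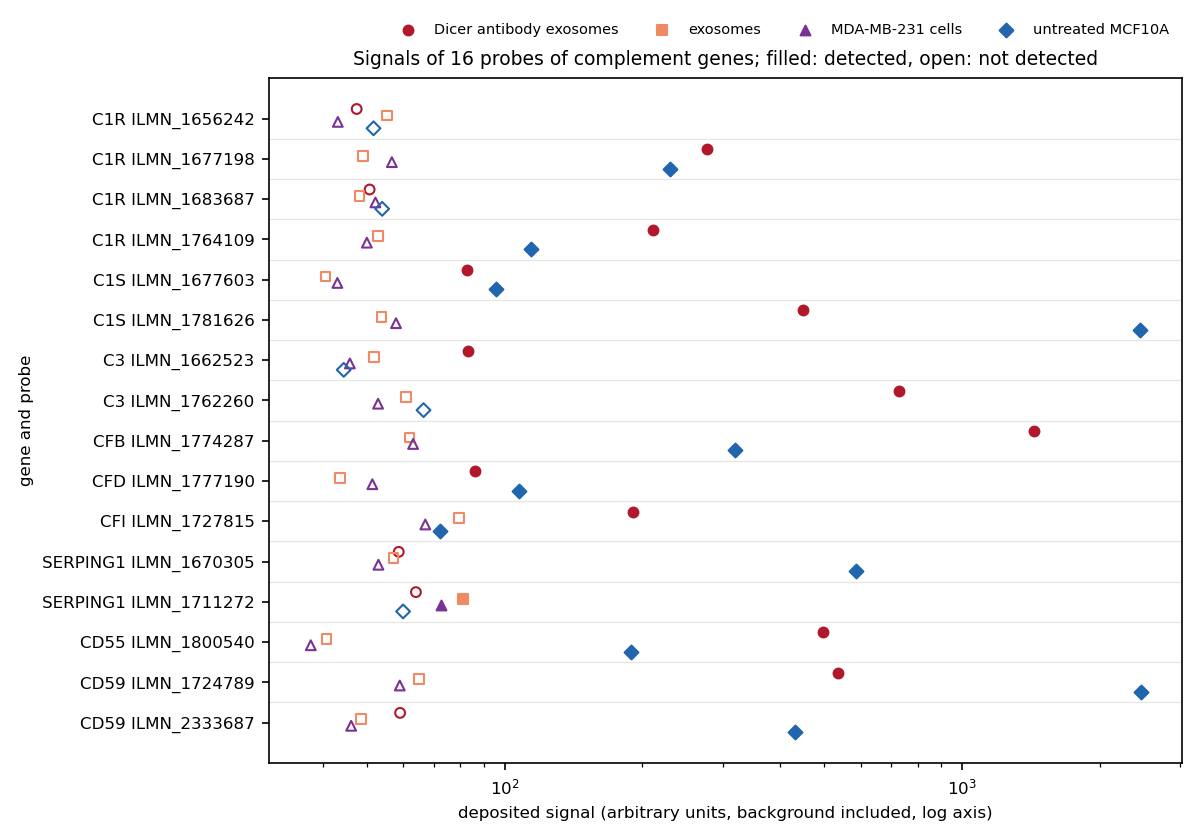
Deposited signal (log axis, arbitrary units, background included) of each of the 16 complement probes on the 4 arrays; filled symbols were detected and open symbols were not. The probes on the exosome and MDA-MB-231 arrays sit between 37.7 and 81.0 units, while C1S and CD59 reach 2448.6 and 2455.8 units on the untreated array and CFB reaches 1433.8 units on the Dicer antibody array.

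Between the Dicer antibody and untreated arrays, complement genes moved in both directions. C3, CFB, CD55 and CFI had higher signals on the Dicer antibody array, whereas C1S, CD59 and 1 SERPING1 probe had lower ones. C1R and CFD differed little. Each gene was read through 1 probe, that of the highest mean log2 value. Differences of 2-fold or more were found for 6 of 8 compared genes (4 higher, 2 lower), with a median log2 difference of 1.0. The background was 31.5% of 12252 genes, 14.8% higher and 16.7% lower, with a median of -0.01. The members were chosen with earlier results of these data known, so this is not an independent comparison. Of the 8, only C3 was detected on just 1 of these arrays, against 18.9% of all genes compared. SERPING1 was not compared by that reading, for the probe that stands for it was not detected on either array. With each gene read by the probe with the highest deposited signal instead, a choice made after the values were seen, SERPING1 entered and 4 genes were higher and 3 lower of 9. By probe, 13 of 16 could be compared. Of these, 5 were higher and 4 lower by 2-fold or more, against a background of 28.7% of all probes. Under all 6 scalings of the arrays 3 of the higher and 4 of the lower probes stayed past 2-fold.

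**Figure D2:**
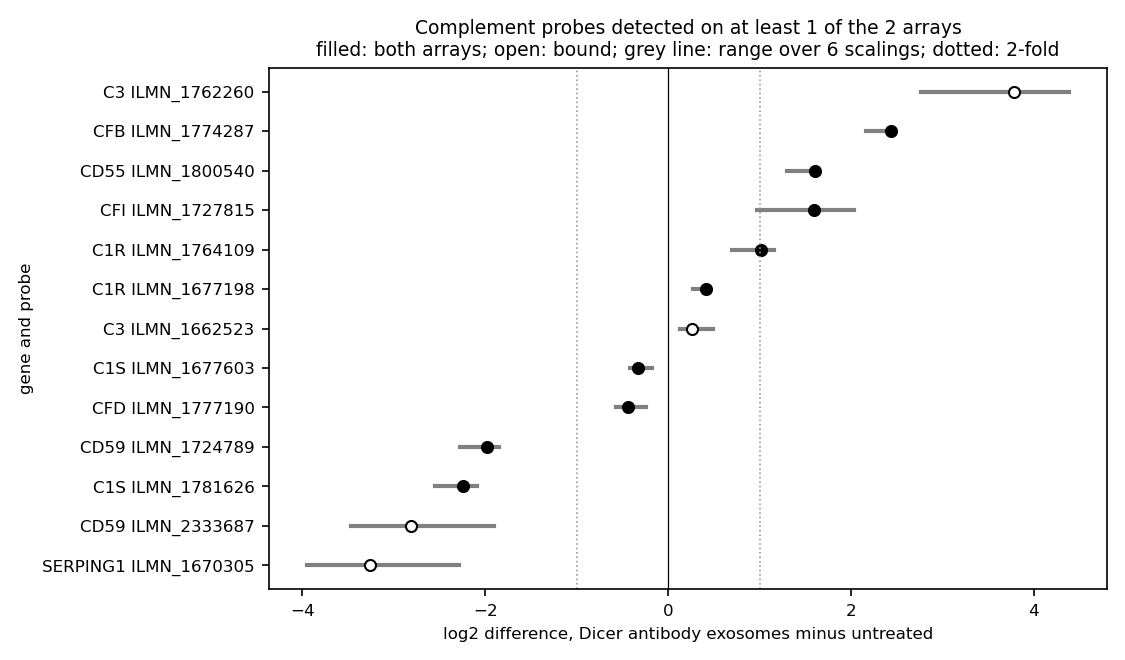
Log2 difference (x axis), Dicer antibody minus untreated, for each complement probe detected on at least 1 of the arrays (y axis); open points are bounds and grey lines give the range over 6 scalings. C3, CFB, CD55, CFI and a C1R probe lie beyond 2-fold on the right, and the brighter C1S probe, both CD59 probes and a SERPING1 probe lie beyond it on the left.

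C1R and C1S, the paired proteases of the classical pathway, are encoded on chromosome 12 and differed in their shifts. C1S probe ILMN_1781626 read 448.1 units on the Dicer antibody array, 53.8 on the exosome array, 57.9 in MDA-MB-231 cells and 2448.6 on the untreated array. It was 4.74-fold lower on the Dicer antibody array than on the untreated array after normalization. The other C1S probe, ILMN_1677603, was dim, at 82.6 against 95.9 units, and differed by only -0.33 on the log2 scale. The 2 probes thus disagree in size, and the platform gives them different RefSeq transcripts.

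C1R had 4 probes, all given the same RefSeq transcript by the platform. ILMN_1677198 read 277.7 units on the Dicer antibody array, 49.1 on the exosome array, 56.7 in MDA-MB-231 cells and 230.5 on the untreated array, a log2 difference of 0.41 between the first and the last. ILMN_1764109 read 211.5 units on the Dicer antibody array and 114.0 on the untreated array, a difference of 1.02 on the log2 scale whose smallest value over the scalings was 1.46-fold. The remaining C1R probes were not detected on any array, at 43.2 to 55.3 units. C1R was therefore present on both arrays with many detected probes, with no change of 2-fold that its probes shared.

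C3, the central component on which the pathways converge, lies on chromosome 19. Probe ILMN_1762260 read 729.6 units on the Dicer antibody array, 61.0 on the exosome array, 52.9 in MDA-MB-231 cells and 66.5 on the untreated array. Only the Dicer antibody array detected it, although its detection p on the untreated array, 0.0117, was just above the threshold. It was at least 5.11-fold higher on the Dicer antibody array than on the untreated array, the smallest bound over 7 scalings that include the authors' value table. Probe ILMN_1662523 read 83.2 units on the Dicer antibody array and was not detected on the others, at 51.8, 45.9 and 44.5 units on the exosome, MDA-MB-231 and untreated arrays. Its bound was at least 1.07-fold. Both probes thus detected C3 on the Dicer antibody array alone, at very different signals.

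CFB, the protease that joins C3 fragments to form the alternative pathway convertase, lies on chromosome 6. Its probe read 1433.8 units on the Dicer antibody array, 62.0 on the exosome array, 63.1 in MDA-MB-231 cells and 319.4 on the untreated array. It was 5.40-fold higher on the Dicer antibody array than on the untreated array. CFD, the protease that cleaves CFB and is also made by fat cells as adipsin, lies on chromosome 19. It read 86.1 units on the Dicer antibody array, 43.6 on the exosome array, 51.4 in MDA-MB-231 cells and 107.7 on the untreated array. The log2 difference of CFD between the Dicer antibody and untreated arrays was -0.44, a smaller difference than that of CFB and of the other sign.

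The secreted inhibitors went opposite ways, for SERPING1 by probe ILMN_1670305 only. CFI, the protease that inactivates C3b (chromosome 4), read 190.7 units on the Dicer antibody array, 79.4 on the exosome array, 67.1 in MDA-MB-231 cells and 72.4 on the untreated array. CFI was 3.02-fold higher on the Dicer antibody array than on the untreated array, but only 1.68-fold in the authors' deposited table. SERPING1, the C1 inhibitor that blocks C1R and C1S (chromosome 11), read 58.7 units with probe ILMN_1670305 on the Dicer antibody array, 57.2 on the exosome array, 53.0 in MDA-MB-231 cells and 585.6 on the untreated array. Only the untreated array detected this probe, which was at least 3.74-fold lower on the Dicer antibody array.

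The second SERPING1 probe, ILMN_1711272, had the reverse pattern of detection. It read 64.0 units on the Dicer antibody array, 81.0 on the exosome array, 72.6 in MDA-MB-231 cells and 60.0 on the untreated array, and the exosome and MDA-MB-231 arrays alone detected it. It was the only 1 of the 16 complement probes detected on either of those arrays, which detected 5.34% and 5.44% of all probes. On the exosome array its 81.0 units equalled the lowest detected signal of the array. Its detection p there was 0.00909, just below the threshold of 0.01. The CFI probe was just above that threshold, at 0.0117 on the exosome array and 0.0130 on the MDA-MB-231 array. The signals of ILMN_1711272 span 60.0 to 81.0 units, and the platform gives it another RefSeq transcript than ILMN_1670305.

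CD55 and CD59 are both held in the membrane by a glycolipid (GPI) anchor. CD55, which speeds the decay of the C3 convertases, lies on chromosome 1. It read 497.5 units on the Dicer antibody array, 40.8 on the exosome array, 37.7 in MDA-MB-231 cells and 189.2 on the untreated array. CD55 was thus 3.04-fold higher on the Dicer antibody array than on the untreated array (smallest 2.19). CD59, which stops the membrane attack complex from forming its pore, lies on chromosome 11. Probe ILMN_1724789 read 534.6 units on the Dicer antibody array, 65.1 on the exosome array, 59.0 in MDA-MB-231 cells and 2455.8 on the untreated array, a 3.94-fold lower value on the Dicer antibody array than on the untreated array. Probe ILMN_2333687 read 59.1, 48.5, 46.2 and 431.5 units in the same order, was detected on the untreated array alone, and was at least 2.92-fold lower on the Dicer antibody array. Both CD59 probes were therefore lower on the Dicer antibody array, while CD55 was higher.

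CD55 and CD59 depend on the genes of GPI anchor synthesis. Of 29 of these compared, 3 were past 2-fold higher on the Dicer antibody array and 4 lower, against 14.8% higher and 16.7% lower over all genes, with a median log2 difference of 0.00. The transamidase subunit PIGU (689.7 against 367.0 units), DPM1, which supplies the mannose donor, and the acyltransferase PIGW were 2.18-fold, 2.16-fold and 2.03-fold higher, and each was under 2-fold in at least 1 scaling (smallest 1.88, 1.80 and 1.68). PGAP6, which cleaves lipid from the anchor, read 262.0 against 1301.4 units and was 4.56-fold lower. PGAP4 was lower by a bound of 2.14-fold and the mannosyltransferase PIGZ by a bound of 1.59-fold. PIGG, which adds an ethanolamine phosphate, was 2.06-fold lower (smallest 1.75).

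Most of the remaining complement system was not detected. Of 47 other complement genes listed, 42 had a named probe, and 6 of them were detected on the Dicer antibody array, 1 on the exosome array, 1 in MDA-MB-231 cells and 9 on the untreated array. On the exosome and MDA-MB-231 arrays that gene was CFHR2, a factor H-related gene of a near-identical family, named here after its values were seen, at 103.0 and 84.0 units. Of 10 genes compared between the Dicer antibody and untreated arrays, 1 was at least 2-fold higher and 2 lower, with a median log2 difference of -0.18. That is near the 31.5% called over all genes. COLEC12, a scavenger receptor of the collectin family, read 141.1 against 3322.3 units and was 23.7-fold lower (smallest 13.0 over the scalings). C2, the classical pathway counterpart of CFB and its neighbour on chromosome 6, had 64.2 units on the Dicer antibody array, where it was not detected, and 125.4 on the untreated array. The bound on its fall was 1.34-fold, so that it did not share the higher signal of CFB. C1QBP, which binds the globular heads of C1q and resides mainly in mitochondria, read 4355.4 against 2598.7 units and was 2.11-fold higher (smallest 1.68). The other 32 of the 42 were not detected on any array, which bars a comparison of most of the cascade.

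Transcripts of cytokines and factors known to induce complement genes were listed beside them. Of 18 compared, 9 were at least 2-fold higher on the Dicer antibody array and 1 was lower, against 14.8% higher and 16.7% lower over all genes. Their median log2 difference was 0.94, against -0.01 over all genes. The list was chosen with earlier results of these data known, so this is not an independent comparison. Interleukin-6 (IL6), an acute-phase cytokine, read 18620.3 against 988.3 units and was 33.7-fold higher (smallest 18.8 over the scalings). IRF1, a transcription factor of the interferon response, read 1719.2 against 199.0 units and was 10.5-fold higher (smallest 6.75). The inflammatory cytokine IL1B rose 49.6-fold (smallest 24.2), and for its relative IL1A the bound was 17.9-fold. The receptor TNFRSF1A was 2.02-fold lower (smallest 1.89). The other 5 of the 23 with a probe were not detected on any array. Any part of these transcripts in the complement differences was not tested.

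**Figure D3:**
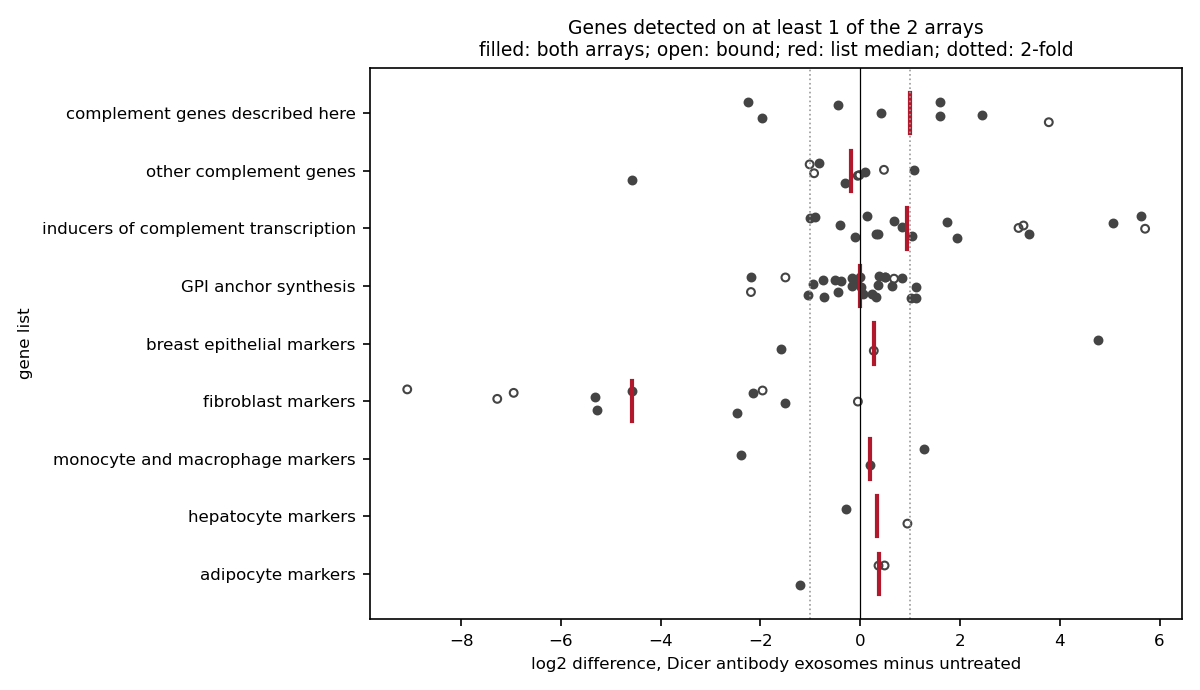
Log2 difference (x axis), Dicer antibody minus untreated, of the genes of each list (y axis) detected on at least 1 of the arrays; filled points were detected on both, open points are bounds and red lines are list medians. The complement genes described here spread from -2.25 to 3.78, the inducers reach 5.71, and the fibroblast markers lie at a median of -4.58.

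Markers of other cell types that make complement moved with the same pair of arrays. The summed signal of the 11 fibroblast markers was 4409.3 units on the Dicer antibody array, 607.5 on the exosome array, 598.5 in MDA-MB-231 cells and 66943.8 on the untreated array. Between the Dicer antibody and untreated arrays 10 of the 11 were at least 2-fold lower, with bounds of 246-fold for COL1A2, 55.3-fold for LUM and 42.9-fold for THY1, and a 39.7-fold fall of PDGFRB (smallest 24.7). In the same comparison C1S, CD59 and SERPING1 probe ILMN_1670305 were lower, whereas C3, CFB, CD55 and CFI were higher. C1R and CFD differed little. Of 3 compared epithelial markers, LAMB3 was 27.1-fold higher (smallest 15.1) and DSP 3.0-fold lower. The 9 epithelial markers summed to 3826.4 units on the Dicer antibody array and 1213.2 on the untreated array. On the exosome and MDA-MB-231 arrays, where none was detected, they summed to 512.9 and 494.0 units. Most of the higher sum was LAMB3, at 3185.9 against 145.1 units, while DSP read 222.3 against 715.8 units. These sums include background, and 6 of the 9 markers were not detected on any array. The part of the fibroblast and epithelial markers in the complement differences was not tested. A change in cell makeup cannot be told apart here from a change in RNA per cell.

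Other sources of complement were represented weakly. Of 8 monocyte and macrophage markers, 3 were detected on the Dicer antibody array and 3 on the untreated array. CD14 was 2.43-fold higher (smallest 1.99) and CD68 5.27-fold lower, while PTPRC and TYROBP were not detected on any array. The summed signal of the 8 markers was 1397.3 units on the Dicer antibody array, 497.8 on the exosome array, 445.9 in MDA-MB-231 cells and 3136.7 on the untreated array. The 8 hepatocyte markers summed to 568.0 and 495.7 units on the Dicer antibody and untreated arrays, and APOA1 was not detected on any array. ALB was detected on all 4 arrays, at 74.5 to 139.3 units, and SERPINA1 on the Dicer antibody array alone, at 122.4 against 52.7 units on the untreated array. The 6 adipocyte markers summed to 492.0 and 585.5 units, with ADIPOQ and PLIN1 undetected on all arrays. LEP was 2.32-fold lower (smallest 1.65), whereas FABP4 (94.3 against 52.9 units) and LPL (88.2 against 56.3 units) were detected on the Dicer antibody array alone.

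Genes with the pattern most like that of C3 and of C1S were sought among 12451 genes detected on at least 1 array, by the root mean square difference of log2 values centred over the 4 arrays. C3 had the largest bound in the higher direction and C1S the largest fall among the members compared. The interferon-induced membrane protein BST2, the cancer-testis gene MAGEC1 and INAVA were nearest to C3, at 0.28, 0.31 and 0.31. BST2 read 1038.7 units on the Dicer antibody array, 61.0 on the exosome array, 54.9 in MDA-MB-231 cells and 97.1 on the untreated array. The peptidase PEPD, the glycogen-targeting subunit PPP1R3C and CHURC1 were nearest to C1S, at 0.25, 0.27 and 0.28. Likeness used the values of all 4 arrays, detected or not. C3 was detected on the Dicer antibody array alone, and C1S on the Dicer antibody and untreated arrays alone. Nearness thus rests in part on values not above background, and with 4 arrays it describes these arrays only.

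What cancer cell exosomes do to MCF10A cells is the question of the exosome over untreated comparison, which crosses the split in detection. No complement probe was detected on both arrays. Of the 12 probes detected on 1 of them, 11 were detected on the untreated array and 1, ILMN_1711272 of SERPING1, on the exosome array. By gene, 8 of 8 were detected on just 1 of the arrays, against 88.1% of all genes compared. C1S had 53.8 units on the exosome array and 2448.6 on the untreated array, and CD59 had 65.1 and 2455.8 units. The bounds on their falls were 1.36-fold and 1.37-fold. On the deposited signals alone these bounds were 30.2-fold and 30.3-fold. For the other genes detected on the untreated array, C1R, CFB, CFD, CFI and CD55, no fold could be given that held over the scalings. Quantile-normalized, 1 of 8 compared genes was at least 2-fold higher and 0 lower, against 17.4% of all genes called (12% higher and 5.37% lower). That gene was SERPING1 through ILMN_1711272, with a smallest bound of 1.19-fold. The other SERPING1 probe, ILMN_1670305, lay the other way, at 57.2 units on the exosome array and 585.6 on the untreated array, a bound of 7.23-fold lower on the deposited signals alone, and with the brighter probe for each gene no member was called. The direction of the calls turned with the scaling: 0 genes were higher and 5 lower both on the deposited signals alone and with no normalization between arrays, and 1 was higher and 3 lower under median scaling.

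MDA-MB-231 cells against the untreated array also crosses the split, and this comparison shares the untreated array with the one before. C1S had 57.9 units in MDA-MB-231 cells and 2448.6 in untreated cells, and CD59 had 59.0 and 2455.8 units, each with a smallest bound of 1.38-fold on its fall. On the deposited signals alone these bounds were 36.1-fold and 36.2-fold. SERPING1 by ILMN_1711272 had 72.6 and 60.0 units, with a smallest bound of 1.05-fold in the other direction. By ILMN_1670305 it had 53.0 and 585.6 units, a bound of 8.62-fold lower on the deposited signals alone. CFB read 63.1 against 319.4 units and CD55 37.7 against 189.2 units, with no bound that held over the scalings. By quantile-normalized values 1 of 8 compared genes was at least 2-fold higher and 0 lower, against 17.9% of all genes called (12.3% higher and 5.52% lower). Here too the direction turned: 0 genes were higher and 6 lower with no normalization between arrays, 0 higher and 5 lower on the deposited signals alone, and 1 higher and 2 lower under median scaling. All 8 were detected on just 1 of the arrays, as were 88.2% of all genes compared.

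For the MDA-MB-231 array the complement values depended on the table that was read. In the authors' deposited table SERPING1 probe ILMN_1711272 had 807.8 for MDA-MB-231 cells and 56.1 for untreated cells, while the scanner table gave 72.6 and 60.0 units. In the authors' deposited table CFI had 534.2 for MDA-MB-231 cells and 61.6 for untreated cells, against 67.1 and 72.4 units in the scanner table. CFB had 322.6 and 139.7 in the authors' deposited table and 63.1 and 319.4 units in the scanner table, so that the order of the arrays turned round. The quantile-normalized values used here had the same order as the authors' values. In MDA-MB-231 cells ILMN_1711272, CFI and CFB stood at log2 values of 10.13, 9.51 and 8.7. In untreated cells they stood at 4.61, 4.94 and 7.2. The detection p-values of CFB and CFI on the MDA-MB-231 array, 0.0481 and 0.0130, were above the threshold. The authors' column for the exosome array holds detection p-values, so no such value could be given there.

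**Figure D4:**
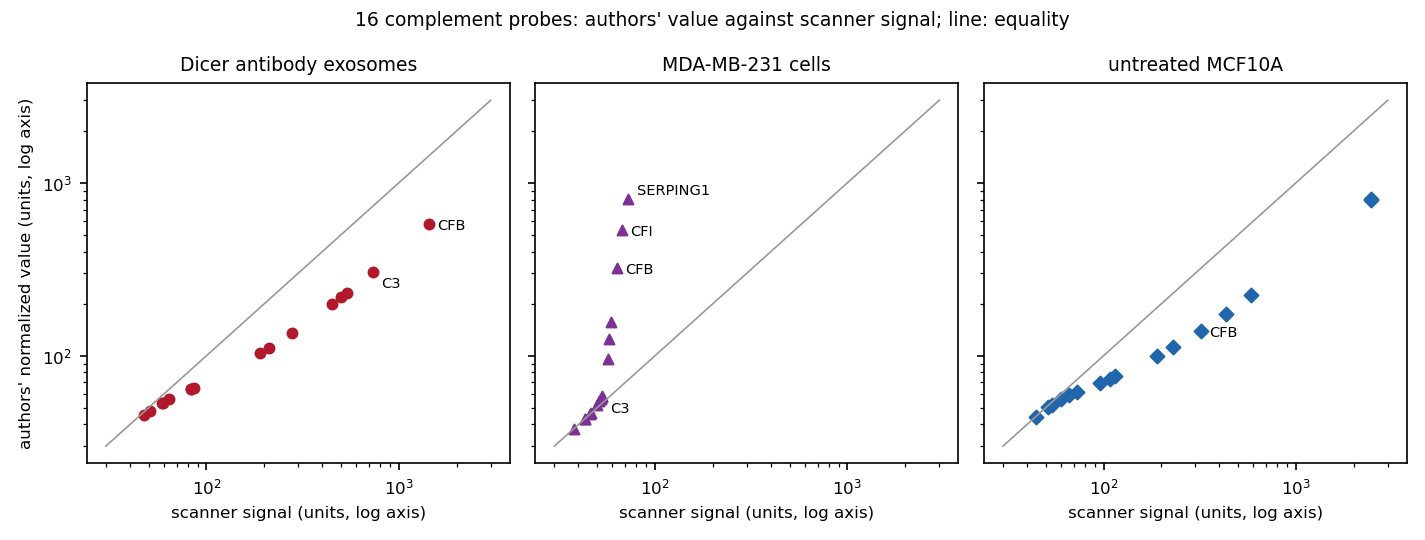
The authors' normalized value (y axis) against the scanner signal (x axis), both on log axes, for the 16 complement probes on the Dicer antibody, MDA-MB-231 and untreated arrays; the line marks equality. On the MDA-MB-231 array scanner signals of 63.1 to 72.6 units stand at 322.6 to 807.8 in the authors' values, while on the untreated array C1S and CD59, at 2448.6 and 2455.8 units, stand at 800.4 and 804.3.

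The Dicer antibody array against the exosome array sets exosomes with a Dicer antibody against those without it, and crosses the same split in detection. Of 12 probes detected on 1 of the arrays, 11 were detected on the Dicer antibody array, and none on both. CFB, at 1433.8 against 62.0 units, CD55, at 497.5 against 40.8 units, and C3, at 729.6 against 61.0 units, had bounds of 17.7-fold, 6.14-fold and 9.01-fold on the deposited signals alone. With quantile normalization a probe had to reach a log2 value of 4.82 to be detected on the Dicer antibody array and 9.66 on the exosome array, and the bounds then stood at no difference. Of 9 compared genes, 0 were higher by 2-fold or more and 1 was lower, SERPING1 through ILMN_1711272, against 17% of all genes called (4.86% higher and 12.2% lower). That probe read 64.0 against 81.0 units, with a smallest bound of 1.12-fold. The direction again turned: 7 genes were higher and 0 lower both on the deposited signals alone and with no normalization between arrays, and 5 were higher and 1 lower under median scaling. All 9 were detected on just 1 of the arrays, as were 87.3% of all genes compared.

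The exosome and MDA-MB-231 arrays, the pair with few detected probes, left complement almost unmeasured. The 16 probes read 40.6 to 81.0 units on the exosome array and 37.7 to 72.6 units on the MDA-MB-231 array. The only probe detected on both, ILMN_1711272 of SERPING1, read 81.0 against 72.6 units. Its log2 difference was -0.47 after quantile normalization and 0.16 on the deposited signals, so its direction was not settled. SERPING1 was the 1 gene of 9 that could be compared, and it did not reach 2-fold, against 8.01% of all genes (4.36% higher and 3.64% lower) and 7.65% of all probes. It was detected on both arrays, whereas 38% of all genes compared were detected on just 1.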

How the data were processed

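RNA from 4 samples was measured on Illumina bead arrays. The deposited non-normalized table gives an intensity per probe on a linear scale, without background subtraction, and a detection p-value, per the file headers. The authors' deposited value table holds intensity values normalized between arrays by an unstated method (column medians of 55.3 for Dicer antibody, 55.1 for MDA-MB-231 and 55.3 for untreated, not logged) and, for the exosome array, the detection p-value (median 0.423) in place of a signal. limma is named in the submitters' processing notes.

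Here signals were corrected from the detection p-values, quantile-normalized over 4 arrays and put on the log2 scale with neqc (limma 3.58.1, R 4.3.3, offset 16). Probes were named by the platform annotation (30110 probes with 1 symbol, 8 with several, 17204 with none), and symbols were updated by gene identifier for 30071. A gene was read by its probe with the highest mean log2 value. Where only 1 of 2 arrays detected a probe, the difference is a bound against the higher of the dim array's lowest detected value and the probe's own. Before the fold of a single gene or probe, "at least" gives the smallest bound over 6 scalings and, where it holds both arrays, the authors' table. In counts, "at least 2-fold" refers to the quantile-normalized values unless another scaling is named. A gene so counted can have a smaller bound in another scaling. Differences of 2-fold or more were counted. Other folds come from normalized values and so differ from plain signal ratios. The same smallest value is given for a measured fold it changes much. Of each list, the text names the 4 highest and 4 lowest genes past 2-fold between the Dicer antibody and untreated arrays, with undetected genes counted and only defining markers among them named. The members and lists were chosen with earlier results of these data known. The procedure was tested on simulated data in which a noisy copy of the untreated array, with changes in bright probes only, replaced the Dicer antibody array. That test did not cover changes in dim probes or comparisons across the split in detection. The number of arrays limits the precision. Python 3.11.15, numpy 2.4.6, pandas 2.3.3 and matplotlib 3.10.9 were used.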

Additional observations from a re-analysis of the deposited data

How the results depend on the processing

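No paired analysis was possible because each group had 1 array. Between the Dicer antibody and untreated arrays the number of members at least 2-fold different was 6, and 5 to 7 over the 10 other settings and 2 chosen after seeing the data (each gene's probe with the highest deposited signal, and these arrays normalized without the other 2). No called difference of a member changed sign under them, and 85 of 95 values moved by less than 1.5 times. CFI fell below 2-fold with no background correction (0.98 on the log2 scale), with an offset of 50 (0.97) and in the authors' value table (0.75). C3 ranged from 2.31 as a mean over probes to 4.42 with these arrays normalized alone, and C1S was -1.29 as a mean over probes. Over all genes 3865 were called, against 2482 in the authors' value table.

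Where few and many detected probes are joined, the counts moved with the scaling, the detection filter and the choice of probe. The number of members called was 1 of 8 for exosomes over untreated, 4 under median scaling, 5 with no normalization between arrays, 5 on deposited signals alone, 4 at a detection p below 0.05, 8 with no detection filter, 4 as a mean over probes, and 0 both for genes detected on both arrays, where no member was left to compare, and by the highest deposited signal. It was 1 for MDA-MB-231 over untreated, then, in the same order, 3, 6, 5, 5, 7, 4, 0 and 0. For Dicer antibody over exosomes it was 1, then 6, 7, 7, 3, 7, 5, 0 and 0. For exosomes over MDA-MB-231 it was 0, and 4 with no detection filter. The share of higher genes among all called for exosomes over untreated was 69.2%, and 13.1% under median scaling and 1.86% on deposited signals alone. For MDA-MB-231 over untreated these shares were 69.1%, 16.1% and 0.45%, and for Dicer antibody over exosomes 28.5%, 86.0% and 98.1%. The cause of these moves was not tested. Most member signals on the exosome and MDA-MB-231 arrays were not above background, which limits any fold there. The authors' value table gave no value for comparisons with the exosome array.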
